A study of Mus musculus with 15 samples.

Results

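Mouse primordial germ cell-like cells (PGCLCs) on day 6 of induction in culture (D6PGCLC, 3 samples) were compared with the epiblast-like cells they were made from (EpiLC, 48 h, 3 samples). They make up 6 of the 15 RNA-seq samples of the series. The other 9 samples are naive ESCs and PGCLCs of days 2 and 4 (D2PGCLC and D4PGCLC), and they entered the fit to estimate the spread. The ESCs are labelled as grown in 2i LIF, a medium with LIF and inhibitors of MEK and GSK3. All genes were considered. Of 55536 genes in the count table, 18090 passed the filter on low counts and were tested.

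Every group carried the same transgenes, doxycycline (Dox)-inducible *Prdm1*, *Prdm14*, *Tfap2c* and *Nanog*, in a clonal ESC line with an eGFP reporter of Stella (*Dppa3*). The study describes the engineered ESCs as male. EpiLCs were grown attached for 48 h in N2B27 medium with activin A, bFGF and a low share of knockout serum replacement (KSR). D6PGCLCs were grown from EpiLCs as aggregates in GMEM-based medium with more KSR and Dox, and Stella-eGFP+ cells were sorted before RNA was taken. Transgene expression, medium, aggregation, sorting and 6 days of culture therefore differed together between the groups and cannot be told apart. The samples are numbered 1 to 3 in each group, and the labels do not say whether they came from separate cultures, so that p-values measure the spread between these samples, which may be technical. In bulk RNA, fewer cells of a type and less RNA per cell cannot be told apart either.

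Primordial germ cells (PGCs) are the founders of eggs and sperm. In the mouse embryo they arise from the epiblast, which is about to form the body's tissues. PGCs silence the somatic programme, keep or regain a pluripotency network, lose most DNA methylation and then switch on germline genes, many of which are kept off in somatic cells by DNA methylation and by the Polycomb complex PRC1.6. EpiLCs are the culture model of the epiblast just before this step.

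Counts on genes summed to 27839735 to 32594579 per EpiLC sample and 32530096 to 42725681 per D6PGCLC sample, which makes 3 counts worth 0.0661 to 0.115 CPM. CPM is a gene's count scaled to the TMM-normalized total of its sample. Levels are given as CPM per sample or as mean ± SD (n = 3 per group). D6PGCLC sample 1 stood apart in its low counts. It had 18061 genes with at least 1 count against 22073 to 24343 in the 5 other samples, but 16679 genes with at least 10 counts against 15777 to 17209. Only 1382 genes had 1 to 9 counts in it, against 6108 to 7510 elsewhere, and 1642 tested genes were at 0 in it, against 145 and 174 in D6PGCLC samples 2 and 3. Of the 5049 genes called between the groups, 607 were at 0 in this sample, and 563 of those were called lower, so the larger changes on leaving it out are given beside the results. The sources used here do not say whether this column was made like the others, so a 0 in this sample may not mean that no read was found.

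The labels were checked against marker genes. Calls on markers stand beside 15.9% of all tested genes called higher and 12% called lower. The 8 PGC markers summed to 331 to 369 CPM in the EpiLC samples and 1199 to 1250.4 CPM in the D6PGCLC samples, and 5 of them were called higher. They include the transgenes *Prdm1*, *Prdm14* and *Tfap2c*, and *Tfap2c* is among the 5, so this sum is in part tied to the transgenes. *Dppa3* is the gene whose reporter selected the D6PGCLC cells, so its rise from 85.2 ± 13.6 to 475 ± 45.2 CPM is tied to the sort, and EpiLCs are not described as sorted. The 4 epiblast markers (*Fgf5*, *Otx2*, *Pou3f1* and *Dnmt3b*) were all called lower and summed to 1824 to 1966 CPM in the EpiLC samples and 54.6 to 68.3 CPM in the D6PGCLC samples. Markers of other cell types moved in both directions. The 7 fibroblast markers summed to 24 to 25.1 CPM in the EpiLC samples and 1.47 to 2.05 CPM in the D6PGCLC samples, and all 5 that were tested were called lower. The 5 neural markers summed to 108 to 137 CPM in the EpiLC samples and 63 to 79.6 CPM in the D6PGCLC samples, with 1 called higher and 2 lower. The sum of the 5 blood markers was 1.65 to 2.09 CPM in the EpiLC samples and 0.473 to 0.815 CPM in the D6PGCLC samples, and that of the 5 trophoblast markers 4.54 to 6.35 CPM in the EpiLC samples and 4.43 to 6.2 CPM in the D6PGCLC samples. The 6 endoderm markers summed to 2.66 to 2.97 CPM in the EpiLC samples and 9.09 to 16.9 CPM in the D6PGCLC samples, and the 5 somatic mesoderm markers to 3.44 to 5.06 CPM in the EpiLC samples and 13 to 19.6 CPM in the D6PGCLC samples. *Ttr* (endoderm), *Tpbpa* (trophoblast), *Lum* (fibroblasts) and Hbb-bs (blood) were at 0 in all 6 samples, while other markers of these lists were detected. Of the 4 endoderm markers tested, 3 were called higher and 1, *Foxa2*, lower. The part of other cell types in the results was not tested.

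The *Prdm1*, *Prdm14*, *Tfap2c* and *Nanog* counts cannot be split into transgene and endogenous reads. *Prdm1* stood at 59.6, 80.9 and 74.2 CPM in the EpiLC samples and 60.4, 62 and 56.4 CPM in the D6PGCLC samples (log2 fold change -0.26, SE 0.11, adjusted p = 0.0406), and the groups overlapped. *Prdm14* stood at 78.7, 106 and 105 CPM in the EpiLC samples and 74.3, 76.9 and 63.7 CPM in the D6PGCLC samples (log2 fold change -0.43, SE 0.1, adjusted p = 0.00182). *Nanog*, at 462, 582 and 583 CPM in the EpiLC samples and 720.1, 848 and 637 CPM in the D6PGCLC samples, had a log2 fold change of 0.44 ± 0.11 (SE). *Tfap2c* was the transgene called higher, from 53, 59.95 and 55.3 CPM in the EpiLC samples to 166, 162 and 157 CPM in the D6PGCLC samples (log2 fold change 1.53, SE 0.076, adjusted p = 8.31e-12). The counts of the other 3 differed between the groups by less than 2-fold.

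In all, 2885 genes were called higher (15.9% of those tested) and 2164 lower (12%) in D6PGCLCs than in EpiLCs, that is 27.9% in either direction. Calls are from edgeR's quasi-likelihood test and need both an adjusted p (Benjamini-Hochberg) under 0.05 and a change of more than 1 on the log2 scale. The median log2 fold change over all tested genes was 0.034. At a cutoff of 2 on the log2 scale, 1284 and 1092 genes remained. For 7706 genes (42.6%) the 95% interval of the log2 fold change lay between -1 and 1, so that a change of 2-fold or more lay outside it. Of the called genes, 4877 had no overlap between the groups' CPM values, and 4592 (90.9%) were also called without D6PGCLC sample 1. The groups did not overlap in any called gene whose values are given here.

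**Figure D1:**
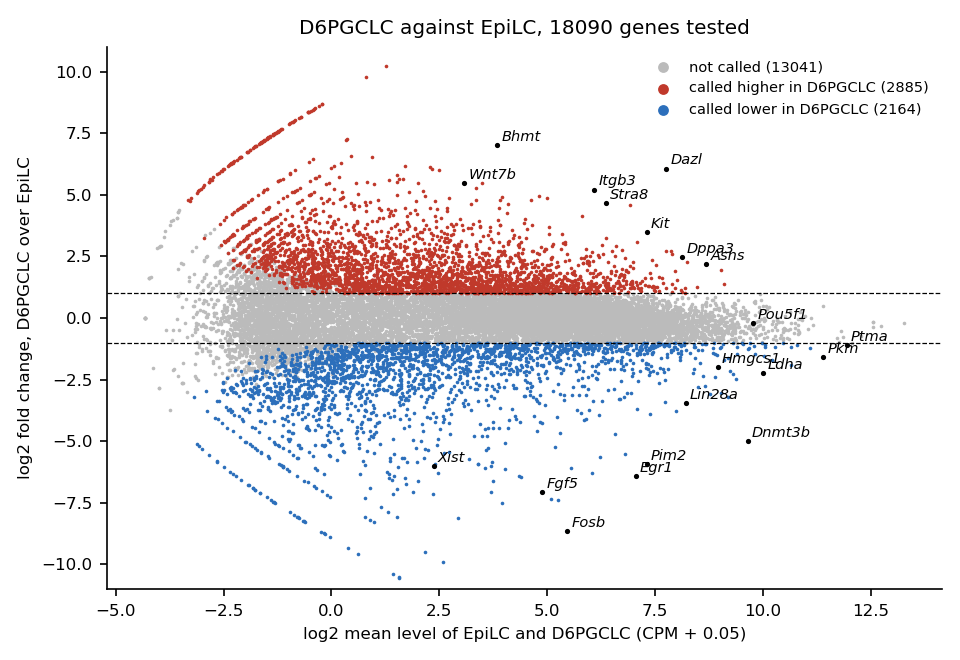
Log2 fold change of D6PGCLC over EpiLC (vertical axis) against the log2 mean level of both groups (horizontal axis, CPM + 0.05) for 18090 genes, with 2885 called higher in red, 2164 called lower in blue and dashed lines at -1 and 1. Dazl, Itgb3 and Kit stand out among the higher genes and Dnmt3b, Egr1 and Fosb among the lower ones, while Pou5f1 lies between the lines; the streaks at low level are genes with a group at 0 or a few counts.

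The 15 highest log2 fold changes among called genes with a mean of at least 100 counts lay between 5.21 and 7.02. Coordinates are of GRCm38. The highest was *Bhmt* (ENSMUSG00000074768, chromosome 13 from 93616675 to 93637961), which encodes the enzyme that makes methionine from homocysteine and betaine. It stood at 0.115, 0.164 and 0.367 CPM in the EpiLC samples and 29.1, 30.1 and 26.2 CPM in the D6PGCLC samples (log2 fold change 7.02, SE 0.32, adjusted p = 3.12e-12). Every EpiLC sample was near the floor of detection and the D6PGCLC samples lay close together. *Dazl*, an RNA-binding protein that licenses germ cells for their later development (ENSMUSG00000010592, chromosome 17 from 50279395 to 50293636), had 6.28, 6.31 and 6.53 CPM in the EpiLC samples and 459.6, 360.2 and 464 CPM in the D6PGCLC samples (log2 fold change 6.07, SE 0.21, adjusted p = 9.52e-14). *Itgb3*, the integrin subunit used as a surface marker of PGCs, stood at 3.86, 3.45 and 3.45 CPM in the EpiLC samples and 139, 125 and 135 CPM in the D6PGCLC samples (log2 fold change 5.21, SE 0.12, adjusted p = 5.25e-16). Its values lay close together within each group. *Wnt7b*, a secreted WNT ligand, had 0.842, 0.0658 and 0.22 CPM in the EpiLC samples and 18.7, 17.4 and 13.1 CPM in the D6PGCLC samples (log2 fold change 5.49, SE 0.39, adjusted p = 1.10e-09).

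Others of the 15 were *Capn6* (a calpain without protease activity), *Ly6a* (the surface antigen Sca-1), *Mobp* (a myelin-associated protein), *Insyn1*, *Zfr2*, *Uroc1* (an enzyme of histidine breakdown), *AA467197*, *4930550L24Rik*, *1700029J07Rik* and the unclassified transcript *Gm49089*. No EpiLC sample exceeded 6.53 CPM for any of the 15 and no D6PGCLC sample was under 3.57 CPM. All 15 stayed called without D6PGCLC sample 1. Their mean levels in ESCs ran from 0.0112 CPM (*1700029J07Rik*) to 24.8 CPM (*Ly6a*), so not all of them were low there.

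The 15 lowest changes, picked by the same rule, lay between -6.42 and -9.91. *Fosb*, an immediate-early transcription factor of the AP-1 family (ENSMUSG00000003545, chromosome 7 from 19302696 to 19310051), stood at 79.4, 91 and 94.3 CPM in the EpiLC samples and 0, 0.374 and 0.255 CPM in the D6PGCLC samples (log2 fold change -8.64, SE 0.45, adjusted p = 1.65e-11). *Fgf5*, the classic epiblast ligand, had 53.9, 64.9 and 56.7 CPM in the EpiLC samples and 0.815, 0.242 and 0.255 CPM in the D6PGCLC samples (log2 fold change -7.07, SE 0.34, adjusted p = 6.39e-12). *Vrtn*, a vertebral development factor, fell from 76 ± 2.79 to 0.452 ± 0.141 CPM, and *Cxcl12*, the chemokine that guides migrating PGCs, from 41.8 ± 3.73 to 0.449 ± 0.355 CPM.

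*Grm6* (a metabotropic glutamate receptor) and *Miat* (a long noncoding RNA) had 1 count in all D6PGCLC samples together. Their EpiLC levels were 1403-fold (exact 95% counting interval 251 to 55472) and 1052-fold (exact 95% counting interval 188 to 41589.5) higher, respectively, and intervals cover counting error only. Others of the 15 were *Jakmip2*, *Mmp25* (a membrane-bound metalloprotease), *Vwa1*, *Krt12*, *Gap43* (a growth-cone protein), *Fgf15*, *Kif1a* (an axonal transport motor) and the antisense transcript *Gm16233*, whose reads may belong to the gene on the opposite strand since the counting setting is not stated. Of the 15, 10 were at 0 in D6PGCLC sample 1. Without that sample they ranged from -6.04 to -9.49 and all 15 stayed called.

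**Figure D2:**
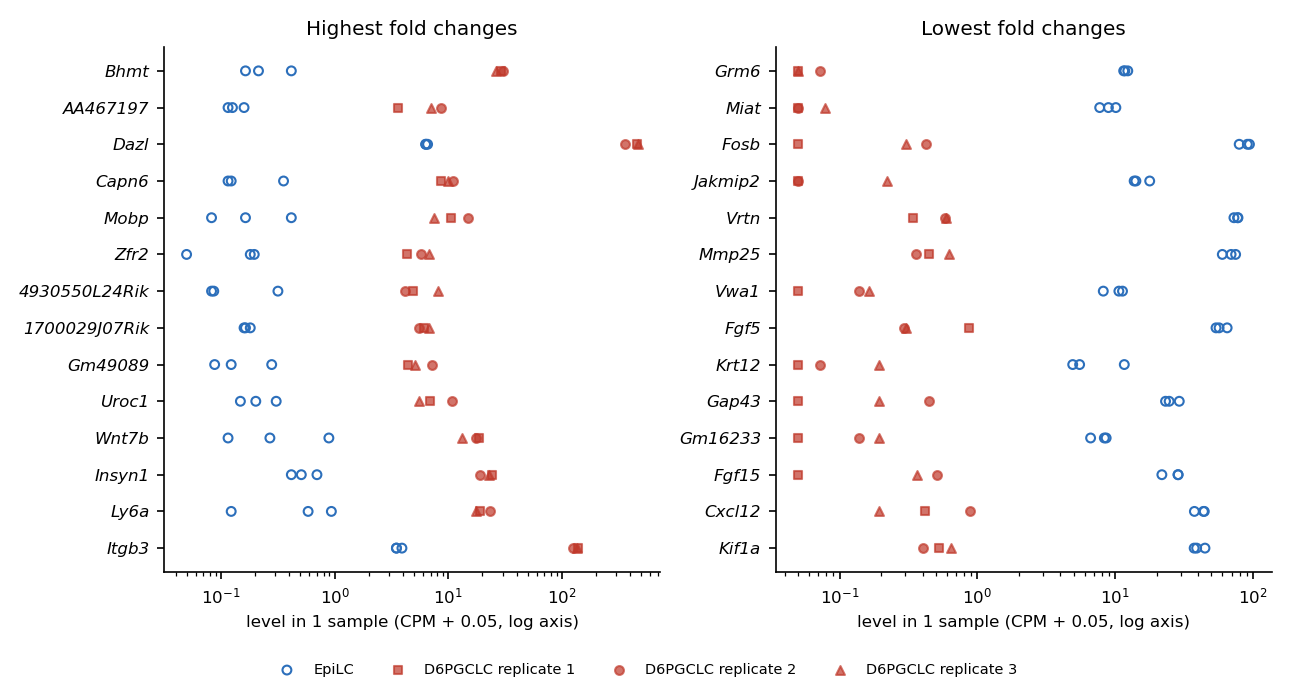
Level in each sample of 14 of the 15 genes with the highest fold change (left) and 14 of the 15 with the lowest (right) (CPM + 0.05, log axis). Open circles are the 3 EpiLC samples and filled symbols the 3 D6PGCLC samples. The genes were picked among those whose groups do not overlap. The squares at the left edge of the right panel are the 9 genes shown that were at 0 in D6PGCLC sample 1.

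Some genes went from at most 3 counts in every sample of one group to at least 100 in every sample of the other. There were 3 that were high in D6PGCLCs, among them *AA467197* and *Gm45598*. In ESCs, *AA467197* averaged 5.17 CPM, beside 6.36 CPM in D6PGCLCs, and *Gm45598* 0.0112 CPM, beside 4.69 CPM. *Gm45598* was at 0 in all EpiLC samples and at least 43.5-fold higher in D6PGCLCs, against a floor of 3 counts per sample. In the other direction there were 10, *Grm6*, *Miat*, *Dcn*, *Kynu*, *Gm5380*, *Krt9*, *Gm29895*, *Tubb4a*, *Rbbp8nl* and *Abca9*. *Dcn*, a matrix proteoglycan, had 180, 173 and 134 counts in the EpiLC samples and 0, 0 and 0 in the D6PGCLC samples, so it was at least 76.1-fold higher in EpiLCs. *Kynu*, which encodes kynureninase of tryptophan breakdown, had 139, 181 and 166 counts in the EpiLC samples and 0, 0 and 0 in the D6PGCLC samples, that is at least 75.5-fold higher. Both were at 0 CPM in the ESC samples too.

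Measured as a difference in CPM, which favours long and abundant transcripts, the 10 largest falls were in *Ptma*, *Pkm*, *Eno1*, *Kpnb1*, *Dnmt3b*, *Ldha*, *Eif5a*, *Fasn*, *Eif4g2* and *Acly*. *Ptma*, which encodes the chromatin-associated prothymosin alpha, had 5012, 5250.5 and 5817 CPM in the EpiLC samples and 2208, 2796 and 2587 CPM in the D6PGCLC samples (log2 fold change -1.08, SE 0.1, adjusted p = 3.16e-08), and it was the one of the 10 no longer called without D6PGCLC sample 1, at -0.99. *Pkm*, the pyruvate kinase gene, fell by 2722 CPM on average and *Dnmt3b* by 1509.9 CPM. The 10 largest rises were in *Etnk1*, *Asns*, *Apoe*, *Dazl*, *Alpl*, *Dppa3*, *H2afy*, *Esrrb*, *Ak4* and *Usp48*. *Etnk1*, an ethanolamine kinase of phospholipid synthesis, had 185, 234 and 222 CPM in the EpiLC samples and 829.5, 879 and 772 CPM in the D6PGCLC samples (log2 fold change 1.95, SE 0.11, adjusted p = 7.68e-11). *H2afy*, which encodes the histone variant macroH2A1, rose from 61.4 ± 4.51 to 408 ± 6.6 CPM (log2 fold change 2.73, SE 0.078, adjusted p = 1.11e-14). *Asns*, asparagine synthetase, had 146, 158 and 143 CPM in the EpiLC samples and 740.3, 576 and 718 CPM in the D6PGCLC samples (log2 fold change 2.19, SE 0.14, adjusted p = 3.22e-10), and *Apoe*, the lipid carrier, 359.6, 262 and 303 CPM in the EpiLC samples and 933, 655 and 806 CPM in the D6PGCLC samples (log2 fold change 1.37, SE 0.14, adjusted p = 1.85e-07).

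Germline genes are described by list. The lists were taken from general knowledge of each process, but with earlier results of these data known, so the shares below describe them and test nothing. The share of a list that was called stands beside 15.9% of all tested genes called higher and 12% lower. For the genes of PGC specification, 12 of 22 tested (54.5%) were called higher and 1 (4.55%) lower (median log2 fold change 1.08). This list includes the transgenes *Prdm1*, *Prdm14*, *Tfap2c* and *Nanog*, and *Dppa3*, whose reporter was used for the sort. *Tfap2c* and *Dppa3* are among the 12, so this share is in part tied to the transgenes and the sort. Of the 11 surface genes in this list, 7 were called higher. *Kit*, the receptor of stem cell factor that PGCs need to survive and migrate, stood at 20.1, 29.5 and 28 CPM in the EpiLC samples and 305, 283 and 288 CPM in the D6PGCLC samples (log2 fold change 3.5, SE 0.12, adjusted p = 7.41e-14). *Alpl*, the alkaline phosphatase by which PGCs are stained, rose from 103 ± 4.21 to 499 ± 62.4 CPM, and *Nanos3*, an RNA-binding survival factor, from 0.765, 1.64 and 1.36 to 6.1, 9.75 and 6.15 CPM (log2 fold change 2.53, SE 0.28, adjusted p = 3.74e-07). *Sox15*, an HMG-box factor, rose from 12.7 ± 1.81 to 62 ± 15.5 CPM. *Lin28a*, the RNA-binding protein that blocks let-7 maturation, was the member called lower, with 579.7, 517 and 539 CPM in the EpiLC samples and 43.8, 56.5 and 48.8 CPM in the D6PGCLC samples (log2 fold change -3.46, SE 0.13, adjusted p = 1.58e-13).

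For the late germ cell genes, 15 of 28 tested (53.6%) were called higher and 2 (7.14%) lower (median log2 fold change 1.47). *Dpep3*, a dipeptidase of testis cells, had 0.153, 0.723 and 0.22 CPM in the EpiLC samples and 11.9, 7.11 and 11.4 CPM in the D6PGCLC samples (log2 fold change 4.74, SE 0.49, adjusted p = 1.55e-07). *Ddx4* (the helicase VASA) rose from 19.4 ± 2.68 to 57.6 ± 6.27 CPM (log2 fold change 1.57, SE 0.12, adjusted p = 3.16e-09) and *Tex14*, a protein of germ cell bridges, from 21.1 ± 5.05 to 99.7 ± 5.33 CPM (log2 fold change 2.24, SE 0.14, adjusted p = 2.55e-10). *Tuba3a* and *Tuba3b*, testis tubulins, were also higher (2.5 and 3.26 on the log2 scale), but they are near-identical copies whose reads may be split. *Tcfl5*, a bHLH factor of spermatocytes, was called lower (-2.79 ± 0.14, SE). *Nobox*, an oocyte homeobox gene, had 50, 26 and 19 counts in the EpiLC samples and 0, 20 and 13 in the D6PGCLC samples and was the other member called lower (-2.07), but not without D6PGCLC sample 1 (-1.49).

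For meiosis, 13 of 37 tested (35.1%) were called higher and 2 (5.41%) lower (median log2 fold change 0.9). *Stra8*, the retinoic acid-induced gene of meiotic entry (ENSMUSG00000029848, chromosome 6 from 34920163 to 34939344), stood at 6.58, 5.39 and 6.94 CPM in the EpiLC samples and 153, 129.9 and 194 CPM in the D6PGCLC samples (log2 fold change 4.66, SE 0.25, adjusted p = 2.03e-11). All EpiLC samples were low and all D6PGCLC samples high. *Stag3* and *Smc1b*, the meiotic cohesin subunits, rose from 10.00 ± 1.09 to 69.7 ± 5.72 CPM (log2 fold change 2.8, SE 0.12, adjusted p = 1.73e-12) and from 19.6 ± 7.38 to 93.5 ± 1.14 CPM (log2 fold change 2.25, SE 0.22, adjusted p = 6.20e-08), respectively. *Meiob*, a single-stranded DNA-binding protein of meiotic recombination, rose from 0.187 ± 0.0977 to 6.65 ± 1.56 CPM (log2 fold change 5.1, SE 0.37, adjusted p = 1.34e-09) and *Rec8*, another meiotic cohesin, from 9.02 ± 1.38 to 31.4 ± 6.4 CPM. *Spo11*, which makes the breaks that start recombination, fell from 1.24 ± 0.0498 to 0.145 ± 0.134 CPM (log2 fold change -3.04, SE 0.85, adjusted p = 0.00476), and 11 of 16 recombination genes were not called, among them *Dmc1* (0.38, 95% interval -0.0089 to 0.76). *Spo11* and *Rad21l*, the members called lower, were both at 0 in D6PGCLC sample 1. *Sycp3*, the axis protein of the synaptonemal complex, was not called either (0.55, 95% interval 0.15 to 0.96).

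Of the piRNA genes, which silence transposons in germ cells, 12 of 23 tested (52.2%) were called higher and 3 (13%) lower (median log2 fold change 1.12). *Asz1*, a partner at the mitochondrial surface, had 1.99, 0.756 and 1.14 CPM in the EpiLC samples and 19, 14.8 and 26 CPM in the D6PGCLC samples (log2 fold change 3.95, SE 0.4, adjusted p = 1.17e-07), and the helicase *Mov10l1* had 8.42, 7.1 and 7.96 CPM in the EpiLC samples and 40.5, 33.1 and 35.2 CPM in the D6PGCLC samples (log2 fold change 2.21, SE 0.14, adjusted p = 2.39e-10). EpiLCs held little of both. Of the PIWI proteins, *Piwil2* rose from 16.8 ± 1.59 to 57 ± 3.45 CPM (log2 fold change 1.77, SE 0.15, adjusted p = 1.60e-08) and *Piwil1* fell from 6.53 ± 1.04 to 1.34 ± 0.736 CPM (log2 fold change -2.28, SE 0.42, adjusted p = 0.000142). Over the 3 lists together, 37 of 82 tested members (45.1%) were called higher, beside 15.9% of all tested genes, and 7 (8.54%) lower, beside 12%. Without D6PGCLC sample 1, 33 and 6 were.

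The promoters of germline genes are shown because DNA methylation at CG pairs and PRC1.6, whose E2F6 subunit binds TCCCGC and whose MGA-MAX subunits bind the E-box CACGTG, are the known repressors of such genes. The sequences run from 250 bases before to 50 after the start of the gene, are from RefSeq (GRCm38.p6, whose start can differ from that of the coordinates given for a gene), and are printed 5′ to 3′ on the gene's strand. In *Dazl* (chr17:50293571-50293870, minus strand) and *Stra8* (chr6:34920698-34920997, plus strand) capitals mark CG pairs, of which there are 28 and 10. In *Stag3* (chr5:138280259-138280558, plus strand) and *Mov10l1* (chr15:88982744-88983043, plus strand) capitals mark TCCCGC or CACGTG on either strand.
*Dazl*: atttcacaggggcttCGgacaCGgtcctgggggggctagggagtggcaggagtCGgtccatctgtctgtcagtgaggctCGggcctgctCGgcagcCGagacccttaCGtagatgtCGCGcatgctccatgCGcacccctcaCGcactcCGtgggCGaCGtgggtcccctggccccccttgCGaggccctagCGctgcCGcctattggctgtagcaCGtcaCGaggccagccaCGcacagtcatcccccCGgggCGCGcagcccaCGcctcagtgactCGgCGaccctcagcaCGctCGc
*Stra8*: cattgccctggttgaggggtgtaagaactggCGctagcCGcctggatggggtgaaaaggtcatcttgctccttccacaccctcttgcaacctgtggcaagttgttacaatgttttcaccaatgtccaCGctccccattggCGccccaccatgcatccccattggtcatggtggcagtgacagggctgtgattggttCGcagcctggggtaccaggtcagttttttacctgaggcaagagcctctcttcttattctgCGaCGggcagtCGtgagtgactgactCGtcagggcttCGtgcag
*Stag3*: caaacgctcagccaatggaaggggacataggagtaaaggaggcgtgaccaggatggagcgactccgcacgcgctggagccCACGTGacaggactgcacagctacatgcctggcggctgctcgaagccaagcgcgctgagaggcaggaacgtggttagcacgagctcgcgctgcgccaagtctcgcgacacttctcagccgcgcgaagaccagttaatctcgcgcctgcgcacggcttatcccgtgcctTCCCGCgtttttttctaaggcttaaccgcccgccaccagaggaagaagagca
*Mov10l1*: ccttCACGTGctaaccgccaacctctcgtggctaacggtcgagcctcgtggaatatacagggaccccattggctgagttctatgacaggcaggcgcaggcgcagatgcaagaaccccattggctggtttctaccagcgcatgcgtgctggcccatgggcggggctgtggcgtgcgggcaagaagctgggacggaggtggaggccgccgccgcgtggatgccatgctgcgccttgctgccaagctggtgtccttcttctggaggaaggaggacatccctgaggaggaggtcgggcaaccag

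*Stag3* holds both motifs, *Mov10l1* the E-box, and neither is found in these windows of *Dazl* and *Stra8*. Of 68 genes of the 3 germline lists with a promoter in the table, 24 (35.3%) held CACGTG, beside 11.3% of 12255 tested genes and 7.15% of all 32851 promoters. Among the 33 of them called higher, 10 did (30.3%), a share that is not above that of all members. In the cholesterol synthesis list, which is not a germline list, 22.2% of 18 did. TCCCGC was held by 48.5% of the germline list genes, 50% of the cholesterol synthesis genes, 38% of tested genes and 19.98% of all promoters. Over all called genes its share was 37% in those higher and 33.2% in those lower. A promoter held a median of 20 CG pairs in genes called higher, 14 in genes called lower and 21 in all tested genes. These are shares of letters in a window, and binding and methylation were not measured.

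**Figure D3:**
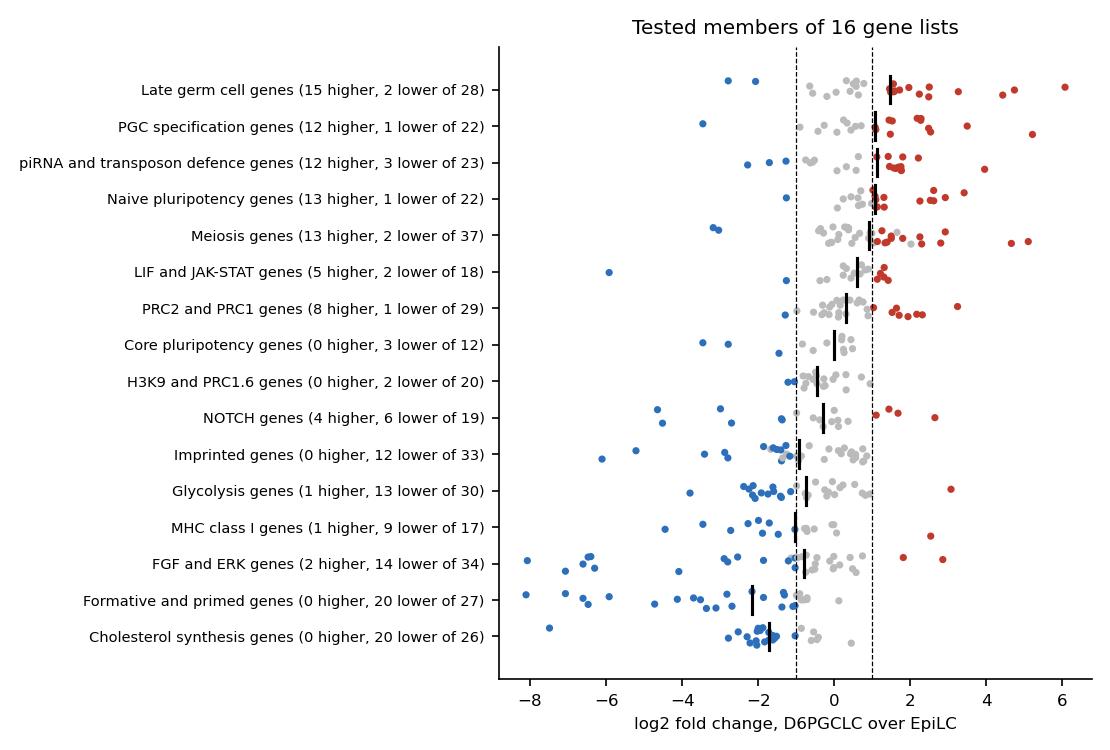
Log2 fold change of D6PGCLC over EpiLC for the tested members of 16 gene lists, 1 point per gene, red where called higher and blue where called lower. Black bars are list medians and dashed lines mark -1 and 1; all formative and cholesterol genes that were called lie on the lower side, and most called germline genes on the higher side.

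Of the DNA methylation machinery, 3 of 18 tested (16.7%) were called higher and 4 (22.2%) lower (median log2 fold change -0.26). The share called higher was near the 15.9% of all tested genes, and without D6PGCLC sample 1 2 higher and 4 lower were called, with a median of 0.0054. *Dnmt3b*, a methyltransferase that writes new methylation, stood at 1489, 1611 and 1576 CPM in the EpiLC samples and 46.4, 53.4 and 45.9 CPM in the D6PGCLC samples (log2 fold change -5.0, SE 0.16, adjusted p = 2.58e-14). Its partner *Dnmt3a* had 991, 1075 and 1104 CPM in the EpiLC samples and 117, 137 and 87.1 CPM in the D6PGCLC samples (log2 fold change -3.22, SE 0.19, adjusted p = 6.51e-11), and the cofactor *Dnmt3l* and the remodeller *Hells* were lower too (-1.71 ± 0.25 and -1.47 ± 0.1, SE). *Dnmt1*, which copies methylation at replication, was not called (0.17, 95% interval 0.0042 to 0.34). Its guide *Uhrf1* had 499.9, 538 and 553 CPM in the EpiLC samples and 279.9, 304 and 254 CPM in the D6PGCLC samples (log2 fold change -0.93, SE 0.1, adjusted p = 3.84e-07), short of the cutoff of 1. *Zfp57*, which protects methylation at imprints, rose from 77.3 ± 10.9 to 206 ± 10.6 CPM and *Tet2*, which oxidises methylcytosine, from 28.7 ± 4.5 to 73.1 ± 18.4 CPM, while *Tet1* was at 0.012, 95% interval -0.27 to 0.29.

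Of 8 PRC1.6 genes none was called by edgeR or DESeq2 in either direction, 2 higher and 6 lower had an unadjusted p under 0.05, and their log2 fold changes ran from -0.82 (*L3mbtl2*) to 0.71 (*Wdr5*). *Pcgf6*, which defines the complex, was at -0.75, 95% interval -0.91 to -0.58 and *E2f6* at -0.49, 95% interval -0.68 to -0.3. Of the PRC2 and PRC1 genes, which share *Rnf2* with the PRC1.6 genes, 8 of 29 tested (27.6%) were called higher and 1 (3.45%) lower (median log2 fold change 0.31), beside 15.9% and 12% of all tested genes. The difference between the lists was not tested. The enzyme *Ezh2* was not called (-0.12, 95% interval -0.29 to 0.047). *Scml2*, a PRC1-associated protein of the germline, had 3.9, 4.7 and 4.4 CPM in the EpiLC samples and 38.4, 38.8 and 46.2 CPM in the D6PGCLC samples (log2 fold change 3.24, SE 0.25, adjusted p = 2.43e-09), and *Phf19*, a PRC2 accessory subunit, rose from 20.6 ± 1.45 to 102 ± 7.52 CPM (log2 fold change 2.32, SE 0.1, adjusted p = 1.23e-12). *Ring1*, a PRC1 ubiquitin ligase, rose from 5.22 ± 0.947 to 23.4 ± 4.32 CPM, while its paralog *Rnf2* was at 0.31, 95% interval 0.12 to 0.49. *Epop*, a PRC2 partner, was the member called lower (-1.29 ± 0.17, SE).

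Pluripotency genes were grouped as core, naive and formative. For the core genes, 0 of 12 tested (0%) were called higher and 3 (25%) lower (median log2 fold change 0.00028), and without D6PGCLC sample 1 the median was -0.0022. DESeq2 called none higher, and 5 had an unadjusted p under 0.05 with a higher level. *Pou5f1* was at 974, 888 and 962 CPM in the EpiLC samples and 771, 871 and 826 CPM in the D6PGCLC samples (-0.19, 95% interval -0.38 to -0.011), *Sox2* at 0.48, 95% interval 0.31 to 0.65 and *Sall4* at 0.24, 95% interval 0.06 to 0.43, so that changes of 2-fold lay outside their intervals. Of the naive genes, which mark the pre-implantation state, 13 of 22 tested (59.1%) were called higher and 1 (4.55%) lower (median log2 fold change 1.08). *Tbx3* had 6.2, 7.5 and 7.27 CPM in the EpiLC samples and 75.7, 65.7 and 82.7 CPM in the D6PGCLC samples (log2 fold change 3.42, SE 0.11, adjusted p = 2.58e-14) and *Tfcp2l1* 19.8, 25 and 22.5 CPM in the EpiLC samples and 172, 185 and 154 CPM in the D6PGCLC samples (log2 fold change 2.92, SE 0.14, adjusted p = 5.27e-12). *Esrrb*, a nuclear receptor, rose from 66.9 ± 4.62 to 409.5 ± 16.8 CPM, although its mean in ESCs was 590.2 CPM. *Klf4*, on the other hand, was at 0.24, 95% interval -0.063 to 0.54, against a mean of 173 CPM in ESCs, and *Gbx2* was called lower (-1.26).

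Of the formative and primed genes, which mark the epiblast, 0 of 27 tested (0%) were called higher and 20 (74.1%) lower (median log2 fold change -2.16). None was higher by DESeq2 or at an unadjusted p under 0.05. *Pim2*, a survival kinase, had 339.7, 307 and 291 CPM in the EpiLC samples and 4.57, 6.34 and 4.48 CPM in the D6PGCLC samples (log2 fold change -5.92, SE 0.17, adjusted p = 1.09e-14), and *Lef1*, a nuclear partner of beta-catenin, 121, 125 and 120.4 CPM in the EpiLC samples and 8.33, 20.9 and 6.09 CPM in the D6PGCLC samples (log2 fold change -3.36, SE 0.4, adjusted p = 8.78e-07). Among the members not called, *Utf1* was at 0.12, 95% interval -0.13 to 0.38.

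Signalling genes were grouped by ligand, receptor, inhibitor and target. For FGF and ERK signalling, which drives the epiblast state, 2 of 34 tested (5.88%) were called higher and 14 (41.2%) lower (median log2 fold change -0.8). Lower calls were made for 5 of 8 ligands, 6 of 11 targets, 2 of 10 feedback genes and 1 of 5 receptors. *Egr1*, an immediate-early target, stood at 223, 287 and 277 CPM in the EpiLC samples and 1.97, 4.76 and 2.41 CPM in the D6PGCLC samples (log2 fold change -6.4, SE 0.28, adjusted p = 1.32e-12), and *Fos* at 107, 147 and 134 CPM in the EpiLC samples and 2.34, 1.23 and 1.36 CPM in the D6PGCLC samples (log2 fold change -6.3, SE 0.25, adjusted p = 3.78e-13). Every EpiLC sample held high levels of both and every D6PGCLC sample low ones. Levels in ESCs, which were kept with a MEK inhibitor, were 0.347 and 0.97 CPM on average. *Myc*, a growth regulator, fell from 36.6 ± 3.63 to 2.1 ± 1.65 CPM (log2 fold change -4.09, SE 0.34, adjusted p = 9.86e-09). *Dusp6*, a phosphatase induced by ERK, was just past the cutoff (log2 fold change -1.03, SE 0.092, adjusted p = 2.12e-08), and not called without EpiLC sample 3. The feedback inhibitors *Spry2* and *Spry4* were at -0.59 and -0.5 and the target *Etv4* at 0.74, none of them called. Among receptors, *Fgfr3* rose from 0.603 ± 0.125 to 4.35 ± 1.38 CPM while *Fgfr1* was at 0.57, 95% interval 0.4 to 0.75.

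For NODAL signalling, 2 of 22 tested (9.09%) were called higher and 5 (22.7%) lower (median log2 fold change -0.069), and the median was -0.036 without D6PGCLC sample 1. The co-receptor *Tdgf1* fell from 656 ± 61.9 to 128 ± 58.8 CPM (log2 fold change -2.35, SE 0.29, adjusted p = 1.23e-06) and the inhibitor *Lefty1* from 787 ± 128 to 92.6 ± 18.1 CPM (log2 fold change -3.09, SE 0.15, adjusted p = 8.10e-12), whereas *Lefty2* was at -0.69 ± 0.13 (SE) and *Nodal* itself at -0.91 ± 0.093 (SE). For BMP signalling, which specifies PGCs in the embryo, 6 of 25 tested (24%) were called higher and 5 (20%) lower (median log2 fold change 0.4). *Bmp4* was higher in D6PGCLCs, with 4.9, 8.02 and 7.82 CPM in the EpiLC samples and 27.9, 46.8 and 28.1 CPM in the D6PGCLC samples (log2 fold change 2.31, SE 0.21, adjusted p = 3.32e-08), and the inhibitory *Smad6* rose from 4.95 ± 0.958 to 13.8 ± 2.64 CPM. The BMP targets were split, with *Id4* called higher (1.8) and *Id3* and *Msx1* lower (-1.5 and -4.1).

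Both called receptor genes of the LIF pathway were higher. *Il6st*, the shared gp130 subunit, had 34, 46.8 and 46.2 CPM in the EpiLC samples and 104, 107 and 104 CPM in the D6PGCLC samples (log2 fold change 1.31, SE 0.11, adjusted p = 9.06e-09) and *Lifr* rose from 20.4 ± 2.76 to 44.8 ± 3.17 CPM. Over the LIF and JAK-STAT list, 5 of 18 tested (27.8%) were called higher and 2 (11.1%) lower (median log2 fold change 0.6), and *Pim1* and *Pim2*, kinases of 1 family, went opposite ways (1.21 and -5.92). The receptor *Kit* and its ligand *Kitl* also went opposite ways, the ligand falling from 12.9 ± 1.48 to 3.97 ± 0.15 CPM (log2 fold change -1.69, SE 0.19, adjusted p = 4.53e-07). *Tcl1*, an AKT co-activator, rose from 12.3 ± 1.17 to 75.4 ± 3.4 CPM (log2 fold change 2.62, SE 0.12, adjusted p = 2.64e-12).

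All 3 called NOTCH ligands were lower, of 5. *Dll1* had 89.96, 72.9 and 64.8 CPM in the EpiLC samples and 2.58, 2.18 and 4.39 CPM in the D6PGCLC samples (log2 fold change -4.65, SE 0.26, adjusted p = 4.81e-11), and *Dll3* fell from 22.6 ± 8.75 to 0.982 ± 0.377 CPM. *Notch4* rose from 5.51 ± 0.823 to 34.5 ± 10.9 CPM (log2 fold change 2.65, SE 0.25, adjusted p = 3.53e-08) and *Notch3* fell from 120.0 ± 7.23 to 46.5 ± 5.68 CPM (log2 fold change -1.37, SE 0.11, adjusted p = 5.44e-09), and over the list 4 of 19 tested (21.1%) were called higher and 6 (31.6%) lower (median log2 fold change -0.29). Of the WNT genes, 6 of 48 tested (12.5%) were called higher and 9 (18.8%) lower (median log2 fold change -0.12), beside 15.9% and 12% of all tested genes. *Wnt3a* and *Wnt7b* rose (4.37 and 5.49) and *Wnt8a* fell (-3.37), but the target and inhibitor *Axin2* was at -0.19, 95% interval -0.6 to 0.22.

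The cholesterol synthesis list, which holds the enzymes from acetyl-CoA to cholesterol with their regulators, had 0 genes called higher and 20 lower of 26, beside 12% of all tested genes called lower, with a median of -1.72 beside 0.034. In all 20 the groups did not overlap, which was also so for 4877 of all 5049 called genes. DESeq2 called none higher either, and 1 had an unadjusted p under 0.05 with a higher level. *Hmgcs1*, an early enzyme of the pathway, stood at 854, 776 and 756 CPM in the EpiLC samples and 196, 226 and 175 CPM in the D6PGCLC samples (log2 fold change -2.0, SE 0.11, adjusted p = 5.58e-11). *Lss*, which closes the sterol rings, fell from 361 ± 13.2 to 62.7 ± 11.5 CPM (log2 fold change -2.53, SE 0.14, adjusted p = 3.37e-11), and *Insig1*, the sterol sensor's anchor, from 275 ± 6.47 to 56.1 ± 8.52 CPM (log2 fold change -2.29, SE 0.17, adjusted p = 1.89e-09). The regulators *Srebf1* and *Srebf2*, which encode the factors that activate this pathway, were not called, at -0.54, 95% interval -0.72 to -0.36, and -0.61, 95% interval -0.81 to -0.4, respectively.

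The list's median change from EpiLCs was -1.36 on day 2, -1.44 on day 4 and -1.72 on day 6, where the comparisons of the 3 days share the EpiLC samples. Without D6PGCLC sample 1, 0 higher and 19 lower were called. The lipid synthesis enzymes *Fasn* and *Acly*, not in this list, were lower as well (-1.69 ± 0.13 and -1.54 ± 0.1, SE). The promoter of *Hmgcs1* (chr13:119690101-119690400, plus strand) is shown with the letters of a sterol response element, TCACCCCAC on either strand, in capitals.
*Hmgcs1*: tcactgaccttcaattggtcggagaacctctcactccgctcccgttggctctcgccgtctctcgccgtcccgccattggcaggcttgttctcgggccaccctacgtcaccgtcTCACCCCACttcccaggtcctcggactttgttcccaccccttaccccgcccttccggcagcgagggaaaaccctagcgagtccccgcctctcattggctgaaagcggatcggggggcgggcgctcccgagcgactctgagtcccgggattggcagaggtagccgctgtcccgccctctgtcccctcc
Among the promoters of 18 cholesterol genes in the table, 1 held these letters, which stood in 0.551% of all promoters, 0.677% of the promoters of tested genes, 1.23% of those called lower and 0.446% of those called higher.

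Of the glycolysis genes, 1 of 30 tested (3.33%) were called higher and 13 (43.3%) lower (median log2 fold change -0.75). *Ldha*, lactate dehydrogenase, stood at 1583, 1772 and 1753 CPM in the EpiLC samples and 299, 610.4 and 170.1 CPM in the D6PGCLC samples (log2 fold change -2.24, SE 0.54, adjusted p = 0.00165). *Eno1*, enolase, stood at 2613, 2482 and 2577 CPM in the EpiLC samples and 618, 957 and 454 CPM in the D6PGCLC samples (log2 fold change -1.92, SE 0.26, adjusted p = 4.37e-06), and *Slc16a3*, the lactate exporter MCT4, at 481, 449.9 and 493 CPM in the EpiLC samples and 20.6, 77.2 and 4.19 CPM in the D6PGCLC samples (log2 fold change -3.79, SE 0.97, adjusted p = 0.00259), while DESeq2 gave no p for *Slc16a3*. D6PGCLC sample 2 was the highest and sample 3 the lowest of the 3 D6PGCLC samples for each of these, and likewise for all 13 called-lower glycolysis genes. The same order was found on the earlier days: sample 2 was highest for all 13 in D2PGCLCs and in D4PGCLCs, and sample 3 lowest for 12 and 13. In EpiLCs sample 2 was highest for 6 and sample 3 for 6. The cause of this order was not tested. All 13 genes had no overlap between EpiLCs and D6PGCLCs, as had 4877 of all 5049 called genes. The glucose transporter *Slc2a1* fell from 800.3 ± 42.2 to 154 ± 62.3 CPM (log2 fold change -2.38, SE 0.28, adjusted p = 6.27e-07), whereas *Slc2a3* was at 0.74, 95% interval 0.42 to 1.05, *Pfkp* at 0.82, 95% interval 0.54 to 1.1 and *Ldhb* at 0.54, 95% interval 0.28 to 0.8. *Vegfa*, a growth factor regulated by oxygen like many glycolysis genes, rose from 9.05 ± 1.41 to 76.3 ± 13.5 CPM (log2 fold change 3.07, SE 0.16, adjusted p = 1.15e-11), while the other oxygen-regulated members *Bnip3* and *Egln3* fell (-1.74 and -2.13). The list's median was -0.89 on day 2, -0.67 on day 4 and -0.75 on day 6.

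**Figure D4:**
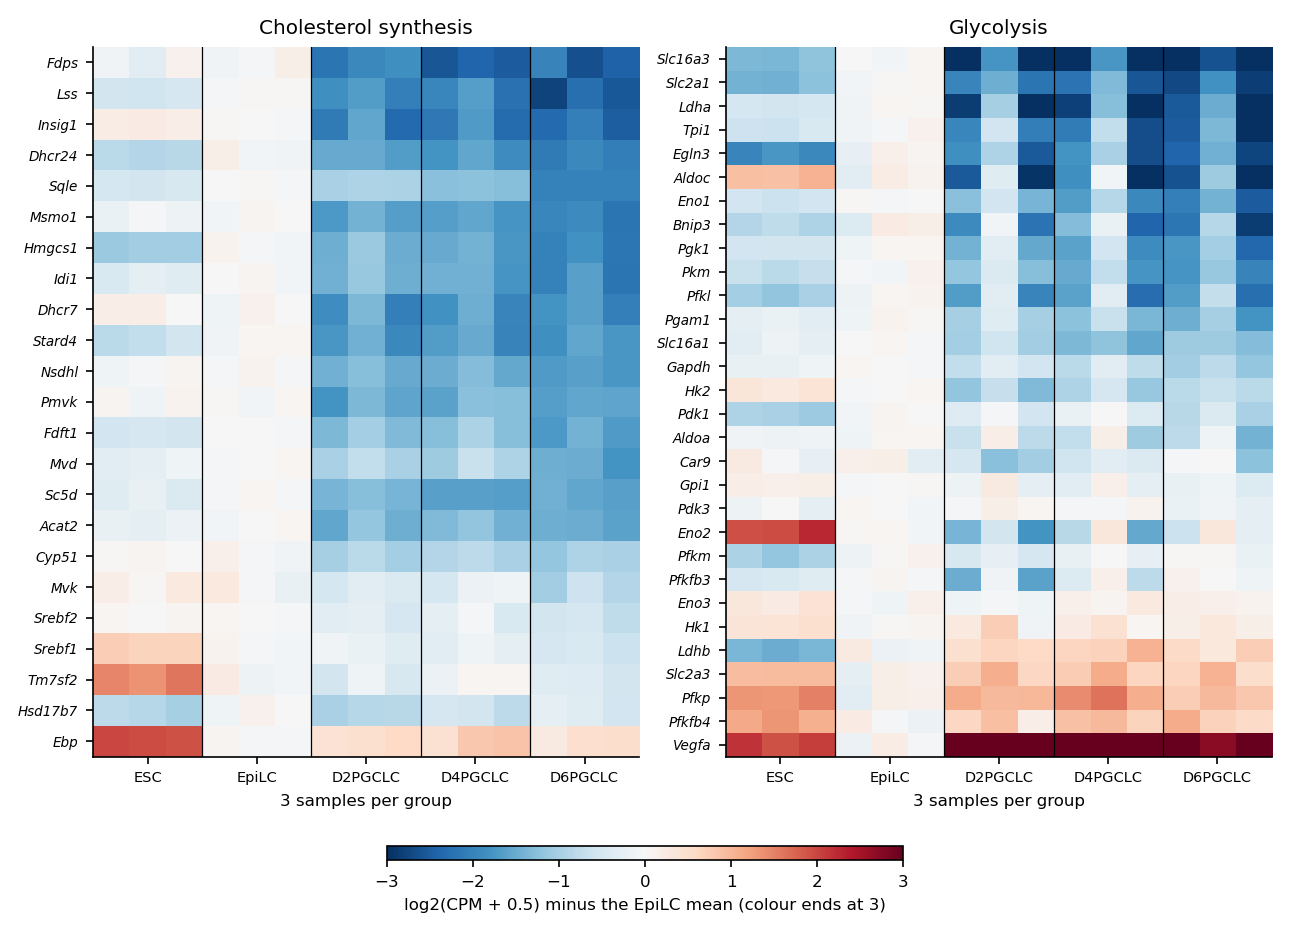
Level of 23 of the 26 tested cholesterol synthesis genes (left) and the 30 tested glycolysis genes (right) in all 15 samples as log2(CPM + 0.5) minus the EpiLC mean, with blue lower and red higher and colours ending at -3 and 3. Most rows are blue in all 3 PGCLC groups; in the glycolysis panel sample 2 (the middle column) of each PGCLC group is paler than samples 1 and 3 in the 13 genes called lower.

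Among genes of the amino acid response, *Asns*, *Cbs* and *Cth* (enzymes of asparagine and cysteine synthesis), *Trib3* and *Ddit3* were called higher, and *Slc7a3* and *Atf3* lower, of 19. These shares were 26.3% and 10.5%, beside 15.9% and 12% of all tested genes. *Psat1* and *Phgdh* of serine synthesis were at 0.15, 95% interval -0.2 to 0.51, and -0.35, 95% interval -0.78 to 0.082.

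The cell cycle list had 5 higher and 5 lower calls of 40 (12.5% each way, beside 15.9% and 12% of all tested genes). None of its 12 G2 and M genes was called by edgeR or DESeq2, with 3 higher and 7 lower at an unadjusted p under 0.05. *Mki67*, the proliferation marker, was at -0.1, 95% interval -0.4 to 0.2. Of the D-type cyclins, *Ccnd1* stood at 142, 149 and 159.7 CPM in the EpiLC samples and 18.4, 22.9 and 17.5 CPM in the D6PGCLC samples (log2 fold change -2.93, SE 0.12, adjusted p = 8.20e-13) and *Ccnd2* fell from 20.6 ± 3.63 to 1.03 ± 0.521 CPM (log2 fold change -4.3, SE 0.3, adjusted p = 9.50e-10), while *Ccnd3* rose from 101 ± 5.05 to 243 ± 16.5 CPM (log2 fold change 1.27, SE 0.084, adjusted p = 3.84e-10). *Cdkn1c*, an imprinted cell cycle inhibitor, fell from 70.2 ± 9.95 to 1.88 ± 0.747 CPM (log2 fold change -5.21, SE 0.3, adjusted p = 5.87e-11), and the pocket protein gene *Rb1* rose from 12.6 ± 3.06 to 43.3 ± 7.85 CPM. Of the p53 and apoptosis genes 4 of 27 tested (14.8%) were called higher and 2 (7.41%) lower (median log2 fold change -0.07), shares below the 15.9% and 12% of all tested genes, with *Trp53* at 0.15, 95% interval -0.014 to 0.32.

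Of the adhesion genes 9 of 33 tested (27.3%) were called higher and 3 (9.09%) lower (median log2 fold change 0.24), and of the matrix genes 6 of 27 tested (22.2%) were called higher and 5 (18.5%) lower (median log2 fold change 0.13). Without D6PGCLC sample 1 the counts were 9 higher and 5 lower for adhesion (median 0.14) and 7 higher and 5 lower for matrix (median 0.26). *Gja1*, the gap junction protein connexin 43, had 322, 315 and 309 CPM in the EpiLC samples and 20.2, 20.3 and 22.6 CPM in the D6PGCLC samples (log2 fold change -3.91, SE 0.09, adjusted p = 5.25e-16). Among integrins, *Itgav*, which pairs with *Itgb3*, rose from 28.8 ± 0.883 to 77.1 ± 6.56 CPM and *Itga5* from 28 ± 2.1 to 71.3 ± 8.47 CPM, *Itga4* fell from 1.44 ± 0.702 to 0.0693 ± 0.0709 CPM and *Itgb1* was at 0.085, 95% interval -0.072 to 0.24. *Cdh1* (E-cadherin) was at -0.9, 95% interval -1.09 to -0.72. Basement membrane genes *Nid1* and *Agrn* were called higher (2.7 and 1.91) and *Lama5* lower (-1.47).

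For MHC class I and antigen processing, 1 of 17 tested (5.88%) were called higher and 9 (52.9%) lower (median log2 fold change -1.04). *H2-K1*, a class I heavy chain, fell from 73.2 ± 6.7 to 19.8 ± 4.14 CPM (log2 fold change -1.89, SE 0.21, adjusted p = 4.36e-07) and *Psmb10*, an immunoproteasome subunit, from 51.1 ± 4.24 to 4.65 ± 0.708 CPM (log2 fold change -3.45, SE 0.2, adjusted p = 8.57e-11). *H2-Bl*, a further class I gene, rose from 5.91 ± 0.36 to 34.4 ± 2.38 CPM. These heavy chains are close paralogs, and reads may have been split among them.

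Imprinted genes, which are expressed from the copy of 1 parent, had 0 higher and 12 lower (36.4%) calls of 33, with a median of -0.94. Of all tested genes 15.9% were called higher and 12% lower. DESeq2 called no imprinted gene higher, and 6 had an unadjusted p under 0.05 with a higher level. *Nnat* had 33.9, 31.6 and 30.8 CPM in the EpiLC samples and 0, 0.881 and 0.454 CPM in the D6PGCLC samples (log2 fold change -6.11, SE 0.48, adjusted p = 3.62e-09), *Mest* 635, 645 and 603 CPM in the EpiLC samples and 89.7, 98.5 and 82.5 CPM in the D6PGCLC samples (log2 fold change -2.8, SE 0.083, adjusted p = 1.93e-14) and *Rian* 155, 181 and 159.7 CPM in the EpiLC samples and 20.9, 23.4 and 22.9 CPM in the D6PGCLC samples (log2 fold change -2.88, SE 0.17, adjusted p = 7.07e-11). The calls fell on genes expressed from the maternal copy (6 of 13) and from the paternal copy (6 of 20). *H19* was at 0.75, 95% interval 0.36 to 1.14, and allelic expression was not measured.

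Trophoblast genes had 9 higher (50%) and 5 lower (27.8%) calls of 18, beside 15.9% and 12% of all tested genes. The list's 10 transcription factors had 6 higher and 2 lower calls (median 2.03), and its 8 other genes 3 and 3 (median -0.33). The transcription factors *Esx1* and *Tead4* rose, from 1.72 ± 0.161 to 47.4 ± 6.66 CPM (log2 fold change 4.78, SE 0.18, adjusted p = 3.13e-13) and from 4.52 ± 0.684 to 36.5 ± 4.73 CPM (log2 fold change 3.01, SE 0.13, adjusted p = 1.97e-12). *Gata3* rose from 0.483 ± 0.253 to 10.4 ± 2.42 CPM and *Cdx2*, a defining trophoblast factor, fell from 0.583 ± 0.206 to 0.217 ± 0.117 CPM. Of the endoderm genes 7 of 17 tested (41.2%) were called higher and 3 (17.6%) lower (median log2 fold change 0.31), and the median was 0.48 without D6PGCLC sample 1. The list's 9 transcription factors had 7 higher and 1 lower calls (median 1.43), and its 8 other genes 0 and 2 (median -0.023). Without D6PGCLC sample 1 these were 6 and 2, and 1 and 1, respectively. *Gata6* rose from 0.417 ± 0.227 to 9.25 ± 4.35 CPM (log2 fold change 4.48, SE 0.49, adjusted p = 2.87e-07), and *Foxa2* had 26, 37 and 25 counts in the EpiLC samples and 0, 1 and 2 in the D6PGCLC samples, so that it was 41.6-fold (exact 95% counting interval 13.8 to 205) higher in EpiLCs. Of the neural genes 6 of 28 tested (21.4%) were called higher and 14 (50%) lower (median log2 fold change -1.25). The list's 13 transcription factors had 6 higher and 3 lower calls (median 1.03, and 0.54 without D6PGCLC sample 1). All 11 of 15 structural and adhesion genes that were called were lower (median -1.87), among them *Nefl* (-2.84) and *Vim* (-2.06). Of 14 fibroblast genes, 8 (57.1%) were called lower, beside 12% of all tested genes, and 1 (7.14%), *Acta2*, was called higher, beside 15.9%.

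The time of the changes differed between genes, and the comparisons of the 3 days share the EpiLC samples. For *Itgb3* the log2 fold change from EpiLCs was 5.12 on day 2, 5.42 on day 4 and 5.21 on day 6, and D6PGCLCs differed from D2PGCLCs by 0.092 (adjusted p = 0.45). For *Dnmt3b* the values were -4.94, -5.18 and -5.0, and for *Wnt7b* 6.26, 5.85 and 5.49. For *Dazl* they were 2.62, 4.87 and 6.07, and D6PGCLCs were higher than D4PGCLCs by 1.2 on the log2 scale (adjusted p = 0.000169). For *Bhmt* they were 1.47, 4.32 and 7.02, with a step of 2.7 after day 4 (adjusted p = 1.07e-06). For *Asns* the values were 3.19, 2.87 and 2.19 (D6PGCLC against D2PGCLC -1.01, adjusted p = 1.76e-05).

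Among the 15 highest genes 8 were called between D6PGCLCs and D2PGCLCs and 3 (*Bhmt*, *Dazl* and *Gm49089*) between D6PGCLCs and D4PGCLCs, each higher on day 6. Of all tested genes 13.6% and 3.08% were called in those comparisons in either direction. Since these genes were picked by their level on day 6, the counts describe them and test nothing. Among the 15 lowest, 8 and 1 (*Vrtn*) were called, each lower on day 6. With the sample number as a block over the PGCLC days, a setting added after the data were seen, 12 and 3 of these were called, and 8 and 3 of the 15 highest.

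Chromosome 8 stood apart from the others. Of its 957 tested genes 188 (19.6%) were called higher, beside 15.9% of all genes, and 86 (8.99%) lower, beside 12%, and its median log2 fold change was 0.27, where those of the 19 other chromosomes ran from -0.12 to 0.11. Chromosome 8 genes took 4.59% to 4.76% of the counts in the 3 EpiLC samples and 5.06% to 5.94% in the 12 other samples, so the EpiLC samples stood apart from all other groups. Along the chromosome, bins of 20 Mb had medians of 0.13 to 0.56. With each sample's chromosome medians taken out, a correction chosen after these values were seen, 142 genes were called higher and 122 lower. On chromosome X, 110 of 684 were higher and 139 (20.3%) lower. DNA copy number was not measured.

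**Figure D5:**
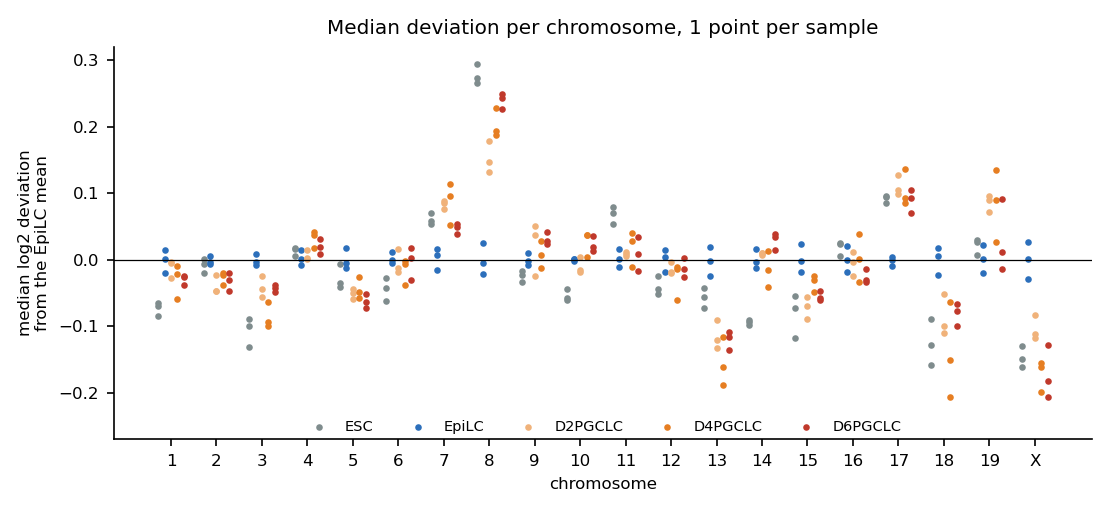
Median over genes of the log2 deviation from the EpiLC mean (log2(CPM + 0.5), genes with a mean of at least 100 counts, each sample's overall median subtracted) for each chromosome, 1 point per sample and a colour per group. On chromosome 8 all 12 samples that are not EpiLC lie at 0.13 to 0.29, above the 3 EpiLC samples.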

How the data were processed

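Bulk RNA-seq was measured in 15 samples. Total RNA (TRIzol) and a directional NEBNext Ultra II library kit were used, and the authors deposited raw counts per gene for 55536 genes. The submitters' processing notes name Trim Galore, FastQC, STAR and mm10, and the counting tool and its strand setting are not given in the sources used here. All 55536 identifiers matched GENCODE M21 (GRCm38), the source of symbols and coordinates. Samples were grouped by their labels. Counts were filtered with filterByExpr (minimum of 10 counts), TMM-normalized and tested with edgeR 4.0.16 (R 4.3.3, quasi-likelihood, 1 coefficient per group), with Benjamini-Hochberg adjustment over 18090 genes. Calls needed an adjusted p under 0.05 and a change of over 1 on the log2 scale. The code was tested on simulated data. DESeq2 1.42.0, which the study's methods name, was an alternative, beside those listed under the dependence on the processing.

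The comparison and the 37 gene lists (884 genes, 3 unmatched) were chosen with earlier results of these data known. Genes named were the 15 highest and 15 lowest fold changes (mean of at least 100 counts, no overlap), the 10 largest rises and falls in CPM, genes with at most 3 counts in one group and at least 100 in the other, the 4 transgenes and list members. Some genes that meet this rule are not reported here, but count in the totals. Duplicate symbols kept the identifier with the most counts. Replicates differed by more than counting noise (chi-square of 9.73 to 25.5 per gene), so each is 1 sample. Among the PGCLC days, deviations of same-numbered samples correlated at 0.117, 0.413 and 0.257 between days 2 and 6. There each sample correlated best with its own number. Between days 4 and 6 the values were 0.0395, 0.418 and 0.45, but D6PGCLC sample 1 correlated better with D4PGCLC sample 2 (0.0572). The labels do not state a pairing, and for sample 1 it is not shown between days 4 and 6. A fold against a group at 0 used a floor of 3 counts per sample.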

Additional observations from a re-analysis of the deposited data

How the results depend on the processing

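Against 2885 genes called higher and 2164 lower, the adjusted p alone called 5465 and 4922, and a cutoff of 2 on the log2 scale 1284 and 1092. DESeq2 called 2934 and 2462, edgeR with DESeq2 size factors 2788 and 2282, no filter on low counts 3159 and 2336, and the 6 samples alone 2569 and 2019. The counts were 2830 to 2990 and 1983 to 2378 when single samples were left out. A replicate block gave 2843 and 2184. Deviations of same-numbered EpiLC and D6PGCLC samples correlated at 0.0563, 0.117 and 0.072, and samples did not all correlate best with their own number, so the numbers are not shown to pair these groups. With a block over the PGCLC days alone, added after the data were seen, 2829 and 2323 were called, and 2537 genes in place of 2462 between D6PGCLCs and D2PGCLCs and 698 in place of 557 between D6PGCLCs and D4PGCLCs. Changes near 0 turned sign. *Tet1* was at -0.027 with DESeq2 size factors, -0.025 with DESeq2, -0.0031 in the 6 samples alone, -0.010 with chromosome medians taken out and between -0.073 and 0.11 when a sample was left out. *Itgb1* was at -0.16 with chromosome medians taken out. Leaving out a sample gave *Axin2* -0.31 to 0.025 and *Psat1* -0.019 to 0.32. *Nobox* and *Jpx* each lost the call under several of these settings, and *Cdh1* and *Uhrf1* gained it, at -1.14 and -1.02, with chromosome medians taken out. The causes were not tested. Depth limits genes near the floor of 3 counts, and with sample 1 of D6PGCLC at 0 for many of them, falls to a low level are the least certain in size.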

Other observations

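Genes on the X chromosome that are known from the germline rose in part. Of 33 tested members, 12 (36.4%) were called higher and 1 (3.03%) lower, beside 15.9% and 12% of all tested genes. The homeobox gene *Rhox6* had 1.95, 1.12 and 2.17 CPM in the EpiLC samples and 56.8, 48.3 and 58.1 CPM in the D6PGCLC samples (log2 fold change 4.97, SE 0.22, adjusted p = 2.11e-12). Its neighbour *Rhox9* had 2.53, 2.2 and 1.61 CPM in the EpiLC samples and 63.7, 56.2 and 66.5 CPM in the D6PGCLC samples (log2 fold change 4.88, SE 0.2, adjusted p = 8.20e-13). *Rhox5*, of the same cluster, was at 0.068, 95% interval -0.13 to 0.27. The engineered ESCs are described as male, and X inactivation was not measured. *Xist*, the RNA that coats the inactive X chromosome, had 7.46, 12.3 and 10.6 CPM in the EpiLC samples and 0, 0.176 and 0.283 CPM in the D6PGCLC samples (log2 fold change -6.02, SE 0.75, adjusted p = 1.44e-06). It overlaps *Tsix*, called lower at -1.26, on the opposite strand, and the reads of the pair cannot be told apart without the counting setting. The neighbouring noncoding genes *Jpx* and *Ftx* were also called lower (-2.17 and -2.17), and *Jpx* had 28, 25 and 18 counts in the EpiLC samples and 0, 10 and 12 in the D6PGCLC samples.

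Of 18 tested Hox genes, which pattern the body axis, 9 (50%) were called higher, all at low levels, beside 15.9% of all tested genes. *Hoxb4* rose from 0.197 ± 0.122 to 2.32 ± 1.11 CPM (log2 fold change 3.56, SE 0.5, adjusted p = 6.60e-06). *Hoxa13* was at 0 in the EpiLC samples, so it was at least 9.13-fold higher in D6PGCLCs. *Hoxb1* was the member called lower (log2 fold change -4.59, SE 1.11, adjusted p = 0.00148). Of the retinoic acid genes 3 of 17 tested (17.6%) were called higher and 3 (17.6%) lower (median log2 fold change -0.13). The share called higher was near the 15.9% of all tested genes, and 12% of those were called lower. Without D6PGCLC sample 1 2 higher and 3 lower were called with a median of 0.18. *Crabp2*, a carrier of retinoic acid, fell from 23.4 ± 6.49 to 2.63 ± 0.745 CPM (log2 fold change -3.16, SE 0.33, adjusted p = 1.86e-07).

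Genes of the 2-cell-stage programme, which a few cells of ESC cultures express at a time, were lower. Of 11 tested, 8 (72.7%) were called lower, beside 12% of all tested genes. The list's median change from EpiLCs was -6.01 on day 2, -4.9 on day 4 and -2.41 on day 6. None was higher by edgeR, DESeq2 or at an unadjusted p under 0.05. *Zscan4d* fell from 9.03 ± 1.27 to 0.946 ± 1.01 CPM (log2 fold change -3.22, SE 0.63, adjusted p = 0.00025). The Zscan4 and Usp17l genes are near-identical copies, so that the share of each copy is uncertain.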
